A study of Caenorhabditis elegans with 12 samples.

Results

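The astacin metalloproteases of *C. elegans* were examined in messenger RNA of late L4 worms. They were found by name among the loci of the deposited count table, as every locus carrying a *nas* gene, *toh-1* or *hch-1*. This gave 39 of 41420 loci. *dpy-31*, another astacin, was not among the members and is given only beside them. Of the 39 loci, 38 had at least 1 count, and 32 had enough counts to be tested. The mutant was the deletion allele *osm-9(ok1677)*, a single strain that lacks function of a TRPV cation channel of chemosensory neurons, and it was set against the wild type strain N2. Synchronized worms of both strains were moved for 6 h to agar plates containing 200 mM NaCl (hypertonic stress) or 51 mM NaCl (control). There were 4 *osm-9(ok1677)* libraries and 2 N2 libraries at each concentration, 12 in all, each made from RNA of whole worms. According to the methods, the conditions were repeated in independent experiments. The study noted that *osm-9(ok1677)* worms develop slightly slower than N2 and staged the cultures by eye before the last molt.

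Astacins are secreted or membrane-bound zinc endopeptidases with a catalytic domain named after a digestive enzyme of crayfish. In *C. elegans* the family is much larger than in most animals, and its members are divided into subgroups by the domains that follow the catalytic domain. Some digest food in the pharynx and gut, and others process the collagens and other matrix proteins of the cuticle, open the old cuticle when the worm molts, or free the embryo from its eggshell.

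Total counts per library lay between 15949889 and 21418277. Every gene of the marker lists for epidermis, intestine, pharyngeal muscle, body wall muscle, neurons, germline, sperm and adult stage was detected. The *osm-9* locus held 41, 42, 50 and 25 counts in *osm-9(ok1677)* and 17 and 14 in N2 at 51 mM NaCl. At 200 mM it held 34, 25, 41 and 38 counts in *osm-9(ok1677)* and 24 and 36 in N2. It was not lower in the mutant, with a log2 fold change of 1.37 (SE 0.35, edgeR adjusted p = 0.0299) at 51 mM and 0.2 (SE 0.32, edgeR adjusted p = 0.774) at 200 mM. The counts cover the whole locus and do not separate the deleted stretch, so they do not test the strain labels. Among the *osm-9(ok1677)* libraries at 51 mM NaCl, replicates 2 and 3 differed beyond counting noise at 45.3% of loci, and each differed from replicates 1 and 4 at between 65% and 70.8%. At 200 mM replicate 3 was the farthest from the others (between 54.5% and 66%), and replicate 2 was no nearer to it than to replicate 1 (50.5%) or 4 (49.5%). The counts of called members, and the values of several members named below, are given with and without replicates 2 and 3. Medians and numbers above 0 for the family and its subgroups, and the values of *nas-23* and *nas-30*, are given only with them.

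The family is spread over chromosomes I, II, III, IV, V and X, with 14 of its 39 members on chromosome V (positions from the Ensembl annotation of the WBcel235 assembly). To compare members with each other, CPM values (counts scaled by library total and TMM factor) were divided by the exon length in kb. At 51 mM NaCl, *nas-11* stood highest in *osm-9(ok1677)* worms, at 64.1 ± 13.8 CPM per kb (SD, n = 4), against 43.1 ± 6.22 in N2 (SD, n = 2). *toh-1*, a homologue of the fly protease tolloid, had 37.8 ± 12 CPM per kb in *osm-9(ok1677)* and 21.4 ± 3.9 in N2. *nas-37*, a protease needed to shed the old cuticle, had 20.2 ± 2.55 CPM per kb in *osm-9(ok1677)* and 17.3 ± 1.36 in N2.

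The order of the family differed between the strains at its top. *nas-20* had rank 3 in *osm-9(ok1677)* worms at 51 mM NaCl, with 32.2 ± 11.8 CPM per kb (SD, n = 4), and rank 1 in N2, with 109 ± 11 CPM per kb (SD, n = 2). In N2 its libraries, at 101 and 117 CPM per kb as lowest and highest, did not overlap with those of *nas-11* at 38.7 and 47.5. In *osm-9(ok1677)* the libraries of *nas-20* lay between 18.8 and 45.4 CPM per kb and overlapped with those of *toh-1*, between 25.3 and 51.5. *nas-20* made up 7.81% of all astacin CPM in *osm-9(ok1677)* and 28.8% in N2. At the low end, *nas-10*, *nas-3* and *nas-6* each had between 0.115 and 0.14 CPM per kb in N2 at 51 mM, and these levels did not differ beyond their spread.

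**Figure D1:**
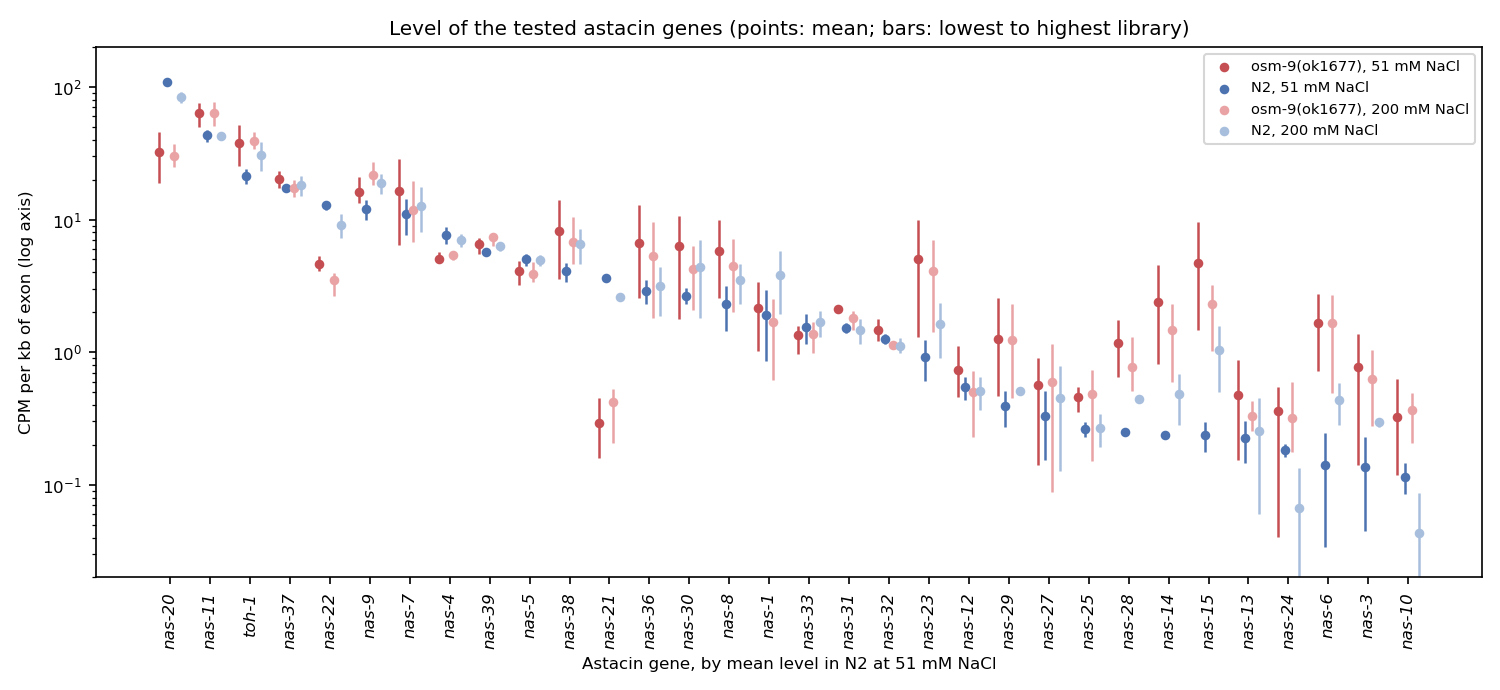
Level of each of the 32 tested astacin genes in CPM per kb of exon, on a log axis, with genes ordered by their mean in N2 at 51 mM NaCl. Points are group means (4 *osm-9(ok1677)* and 2 N2 libraries at each concentration) and bars run between the lowest and the highest library, and a bar that reaches the lower edge includes a library with 0 counts. *nas-20*, first in N2 at 109 CPM per kb, lies at 32.2 in *osm-9(ok1677)*.

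The question asked first was which astacins differed between the strains on control plates. At 51 mM NaCl, 4 members were higher in *osm-9(ok1677)* (*nas-6*, *nas-14*, *nas-15* and *nas-28*) and 4 were lower (*nas-4*, *nas-20*, *nas-21* and *nas-22*), by the quasi-likelihood test of edgeR with an adjusted p of at most 0.05. That is 25% of the 32 tested members, where 12.3% of all 15403 tested loci were called. By direction, 7.64% of all loci were called higher and 4.63% lower. The median log2 fold change of the members was 0.77, beside 0.05 over all loci, and 26 of the 32 members had a value above 0. Low counts in N2 mean that *nas-3*, *nas-6*, *nas-10*, *nas-13*, *nas-24* and *nas-25* passed the count filter only through their mutant libraries. For these members the filter favoured a value above 0, so their direction and the call of *nas-6* are not free of it. Without adjustment, a p of at most 0.05 was reached by 8 members in the upward and 4 in the downward direction, and by 29.1% of all loci. The libraries of the strains did not overlap for 9 members that were higher (28.1%, beside 20.1% of all loci) and for 4 that were lower (12.5%, beside 15.2% of all loci).

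At 200 mM NaCl only the 3 lower members *nas-20*, *nas-21* and *nas-22* were called, 9.38% of those tested beside 6.43% of all loci. In this comparison 2.3% of all loci were called lower and 4.13% higher. Of the members, 0 were called higher with edgeR's quasi-likelihood test and 0 with DESeq2, and edgeR's exact test called 1 (*nas-10*). With the replicate number as a block edgeR called 6 higher (*nas-3*, *nas-6*, *nas-10*, *nas-11*, *nas-14* and *nas-23*) and 4 lower. Without mutant replicates 2 and 3 it called 1 higher (*nas-11*), and without replicates 1 and 4 also 1 (*nas-6*). Without adjustment, 3 members had a p of at most 0.05 in the upward and 4 in the downward direction, beside 23.9% of all loci in either. The median log2 fold change of the members was 0.33, beside 0.05 over all loci. The libraries did not overlap for 4 members that were higher (12.5%, beside 17.5% of all loci) and for 4 that were lower (12.5%, beside 16.8%). Both comparisons use separate libraries, with only 2 N2 libraries each. Same-numbered libraries of the 2 concentrations correlated once group means were removed, with r between 0.52 and 0.81 in *osm-9(ok1677)*. In N2 r was 0.52, and with 2 libraries in a group both pairs must give the same value. Libraries of different numbers were not compared in this way, so these values do not tie a number to a shared culture. Independence of the 2 concentrations was not shown, and a result seen at both was not taken as supported by independent samples.

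**Figure D2:**
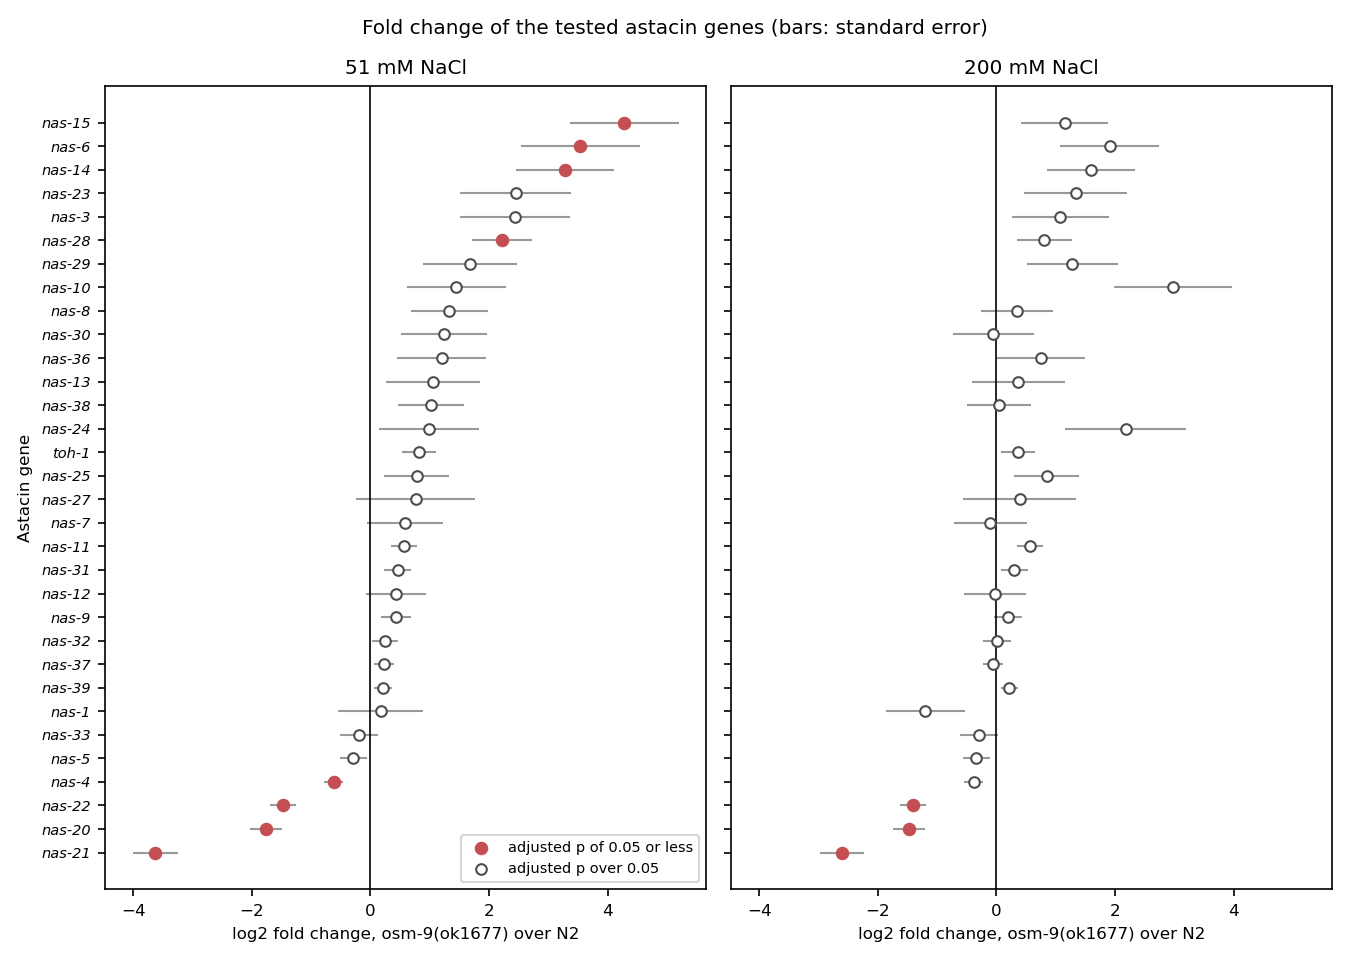
Log2 fold change of *osm-9(ok1677)* over N2 for each tested astacin gene at 51 mM NaCl (left) and 200 mM NaCl (right), with genes ordered by their value at 51 mM and bars showing the standard error of the edgeR fit. Filled points have an adjusted p of 0.05 or less: 8 genes at 51 mM and the 3 genes *nas-20*, *nas-21* and *nas-22* at 200 mM.

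The largest falls by log2 fold change were those of *nas-20*, *nas-21* and *nas-22*, neighbours on chromosome V. *nas-20* (chrV:11470925-11472309, minus strand) and *nas-21* (chrV:11472564-11473899, plus strand) lie head to head with 254 bases between them. *nas-22* (chrV:11474699-11478007, plus strand) follows after 799 bases, so that the trio spans 7.08 kb. All 3 belong to subgroup III, and the nearest other member, *nas-19*, lies 68.2 kb away.

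*nas-20* had 54.3, 22.5, 31.6 and 45.3 CPM in *osm-9(ok1677)* and 139 and 121 CPM in N2 at 51 mM NaCl. The corresponding levels at 200 mM were 44.2, 33.9, 29.8 and 35.5 CPM in *osm-9(ok1677)* and 110 and 90.2 CPM in N2. Every mutant library was below every N2 library at both concentrations, and the lowest mutant values were those of replicates 2 and 3. The log2 fold change was −1.76 (SE 0.27, edgeR adjusted p = 0.00271) at 51 mM and −1.48 (SE 0.27, edgeR adjusted p = 0.00956) at 200 mM, or 0.296 and 0.358 times the N2 level.

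*nas-21* had the largest fall of the family. Its levels at 51 mM NaCl were 0.183, 0.434, 0.516 and 0.209 CPM in *osm-9(ok1677)*, against 4.43 and 3.96 CPM in N2. At 200 mM they were 0.24, 0.536, 0.607 and 0.572 CPM in *osm-9(ok1677)*, against 2.97 and 3.04 CPM in N2. The mutant values rest on 4 to 12 counts per library and the N2 values on 58 to 89, and the groups did not overlap. It differed by a log2 fold change of −3.63 (SE 0.38, edgeR adjusted p = 0.000287) at 51 mM and −2.61 (SE 0.37, edgeR adjusted p = 0.00221) at 200 mM, or 0.0808 and 0.164 times the N2 level. Without mutant replicates 2 and 3 the values were −4.46 (edgeR adjusted p = 0.00126) and −2.94 (edgeR adjusted p = 0.00461).

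*nas-22* had 5.66, 5.77, 6.7 and 5.18 CPM in *osm-9(ok1677)* and 14.8 and 17.6 CPM in N2 at 51 mM NaCl. With 200 mM NaCl it had 4.85, 4.39, 5.01 and 3.38 CPM in *osm-9(ok1677)* and 9.2 and 14 CPM in N2. The 4 mutant libraries lay close together at each concentration and below both N2 libraries. The edgeR fit gave a log2 fold change of −1.47 (SE 0.22, edgeR adjusted p = 0.00195) at 51 mM and −1.4 (SE 0.22, edgeR adjusted p = 0.00357) at 200 mM, or 0.36 and 0.38 times the N2 level. Its locus also holds a piRNA gene, *21ur-15035*, and the counts do not divide the reads of the pair. The exon length is 1265 bases for *nas-22* alone and 1270 for the joined locus.

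At 51 mM NaCl *nas-20* and *nas-22* were called under all 15 alternatives and *nas-21* under the 14 in which it was tested. At 200 mM *nas-21* kept its call in all 14, whereas *nas-20* lost it without N2 replicate 1 (edgeR adjusted p = 0.0957) and *nas-22* without N2 replicate 2 (edgeR adjusted p = 0.0594).

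Other genes around the trio were examined in a window of 50 kb on either side. Of 26 other protein-coding genes 22 were tested. At 51 mM NaCl 0 of these were higher and 4 were lower in edgeR's test (4.63% of all loci were lower), and these 4 are named here after their values were seen. *aat-6*, a predicted amino acid transporter next to *nas-20*, had a log2 fold change of −1.09 (SE 0.26, edgeR adjusted p = 0.0229), and *dhs-19*, of the short-chain dehydrogenase family, had −0.62 (SE 0.18, edgeR adjusted p = 0.0474). The others were *C55A6.4* at −0.6 (SE 0.18, edgeR adjusted p = 0.0488) and *C55A6.7* at −0.86 (SE 0.17, edgeR adjusted p = 0.00985). At 200 mM 1 neighbour was called, *C55A6.7*, which was lower (edgeR adjusted p = 0.0467). None of the 22 neighbours had a value as low as that of *nas-20*, *nas-21* or *nas-22* at 51 mM.

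**Figure D3:**
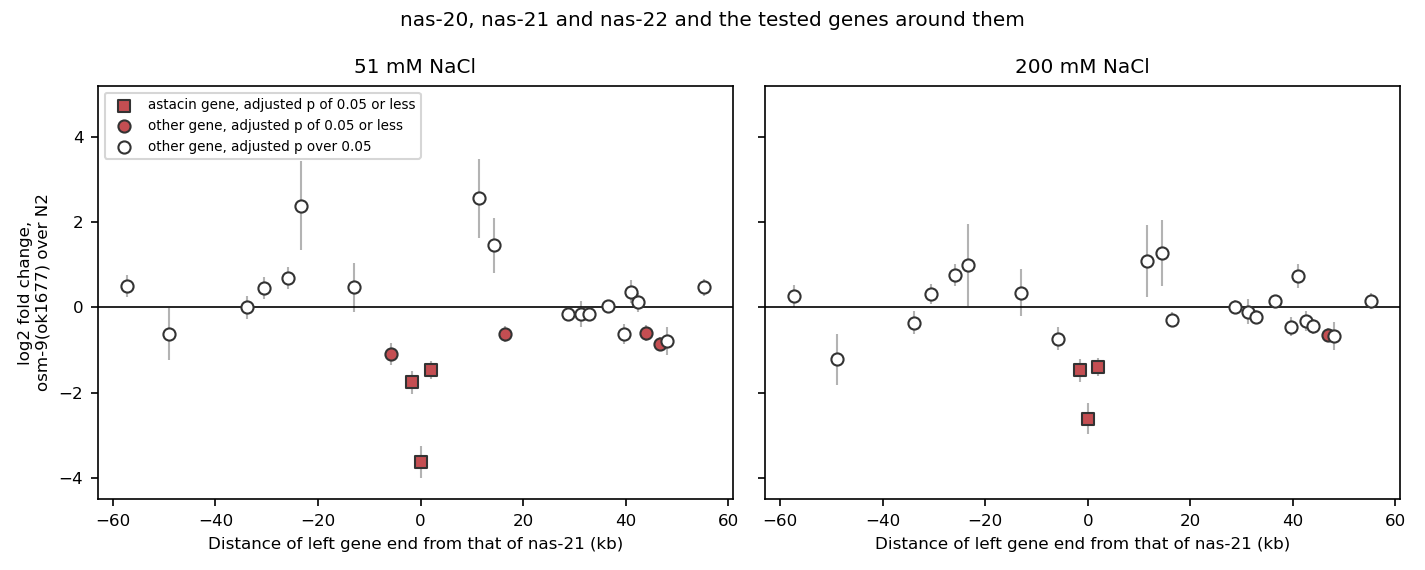
Log2 fold change of *osm-9(ok1677)* over N2 at 51 mM NaCl (left) and 200 mM NaCl (right) for *nas-20*, *nas-21*, *nas-22* (squares) and the 22 tested genes around them (circles), by the distance of the gene's left end from that of *nas-21* in kb. Bars are standard errors and filled symbols have an adjusted p of 0.05 or less; the squares lie at −1.76, −3.63 and −1.47 at 51 mM.

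*nas-4* was the only other member called lower, and only at 51 mM NaCl. It had 18.8, 15.3, 15.4 and 16 CPM in *osm-9(ok1677)*, against 21.5 and 28.9 CPM in N2 at 51 mM NaCl, and 18.1, 18.4, 16.3 and 17.9 CPM in *osm-9(ok1677)*, against 20.6 and 25.4 CPM in N2 at 200 mM. The groups did not overlap at either concentration. Its log2 fold change between the strains was −0.62 (SE 0.16, edgeR adjusted p = 0.0307) at 51 mM and −0.38 (SE 0.16, edgeR adjusted p = 0.185) at 200 mM. The call at 51 mM was lost without N2 replicate 2 (−0.45, edgeR adjusted p = 0.229) and also without *osm-9(ok1677)* replicate 2, 3 or 4, with values between −0.61 and −0.59. The locus is joined with *C05D11.5* in the count table and 18.8% of the exon length of *nas-4* is shared with that gene, so the counts of the pair cannot be divided.

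The 4 members that rose at 51 mM NaCl were expressed at a low level in N2. Of these, *nas-6*, *nas-14* and *nas-15* belong to subgroup II (*nas-6* to *nas-15*), where 3 of 10 members were called at 51 mM, beside 7.64% of all loci called higher. All 10 lay above 0 on the log2 scale, as did 8375 of all 15403 loci, and their median was 1.19. Of this subgroup, *nas-6*, *nas-10* and *nas-13* passed the count filter only through their mutant libraries, which favoured a value above 0. At 200 mM 0 of the 10 were called by edgeR and by DESeq2, 3 had an unadjusted p of at most 0.05, 8 lay above 0 and the median was 0.47. *nas-28* belongs to subgroup III.

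*nas-15* (chrX:777721-780533) had 2.97, 19.5, 10.5 and 4.98 CPM in *osm-9(ok1677)*, against 0.597 and 0.36 CPM in N2 at 51 mM NaCl. At 200 mM it had 2.06, 6.54, 4.96 and 5.25 CPM in *osm-9(ok1677)*, against 1.02 and 3.19 CPM in N2. The groups were separate at 51 mM, with the highest value in mutant replicate 2, and overlapped at 200 mM. The log2 fold change was 4.28 (SE 0.92, edgeR adjusted p = 0.0136) at 51 mM and 1.15 (SE 0.74, edgeR adjusted p = 0.386) at 200 mM. The size at 51 mM rests on mutant replicates 2 and 3: it was 3.66 (edgeR adjusted p = 0.0162) without replicate 2 and 2.95 (edgeR adjusted p = 0.0204) without both.

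For *nas-14* (chrIV:13170541-13174144) the levels at 51 mM NaCl were 1.64, 9.05, 5.67 and 2.62 CPM in *osm-9(ok1677)*, against 0.498 and 0.462 CPM in N2. At 200 mM they were 1.2, 4.66, 2.53 and 3.38 CPM in *osm-9(ok1677)*, against 0.562 and 1.37 CPM in N2. Again replicates 2 and 3 were the highest at 51 mM, and the groups overlapped at 200 mM only. It differed by a log2 fold change of 3.28 (SE 0.82, edgeR adjusted p = 0.0265) at 51 mM and 1.6 (SE 0.74, edgeR adjusted p = 0.213) at 200 mM.

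*nas-6* (chrIV:17486842-17490779), a protease of the pharynx, had 1.1, 3.6, 4.03 and 1.05 CPM in *osm-9(ok1677)*, against 0.0498 and 0.36 CPM in N2 at 51 mM NaCl. The N2 values stand for 1 and 7 counts, and the gene passed the count filter only through its mutant libraries. Under 200 mM NaCl the levels were 0.72, 3.16, 3.95 and 1.82 CPM in *osm-9(ok1677)*, against 0.409 and 0.862 CPM in N2, with 1 mutant library inside the N2 range. The edgeR fit gave a log2 fold change of 3.54 (SE 1, edgeR adjusted p = 0.0416) at 51 mM and 1.91 (SE 0.84, edgeR adjusted p = 0.193) at 200 mM.

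*nas-28* (chrIII:6180962-6183218) had 1.05, 1.92, 2.81 and 1.83 CPM in *osm-9(ok1677)*, against 0.398 and 0.411 CPM in N2 at 51 mM NaCl. At 200 mM the values were 0.816, 1.12, 2.07 and 0.987 CPM in *osm-9(ok1677)*, against 0.716 and 0.71 CPM in N2. The groups did not overlap at either concentration, though the lowest mutant library at 200 mM was close to N2. Its log2 fold change between the strains was 2.22 (SE 0.5, edgeR adjusted p = 0.0173) at 51 mM and 0.81 (SE 0.47, edgeR adjusted p = 0.329) at 200 mM.

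All 4 rises rest on both N2 libraries at 51 mM: 0 members were called higher by edgeR when N2 replicate 1 was left out, and 0 when N2 replicate 2 was left out, with 4 and 3 members still called lower. Their log2 fold changes stayed above 0, between 1.96 and 2.42 for *nas-28* and between 2.74 and 5.39 for *nas-6* when each library was left out. Without mutant replicates 2 and 3 together *nas-15* and *nas-28* were still called, *nas-14* (2.05, edgeR adjusted p = 0.0588) and *nas-6* (2.28, edgeR adjusted p = 0.0826) were not, and *nas-11* was called in addition.

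**Figure D4:**
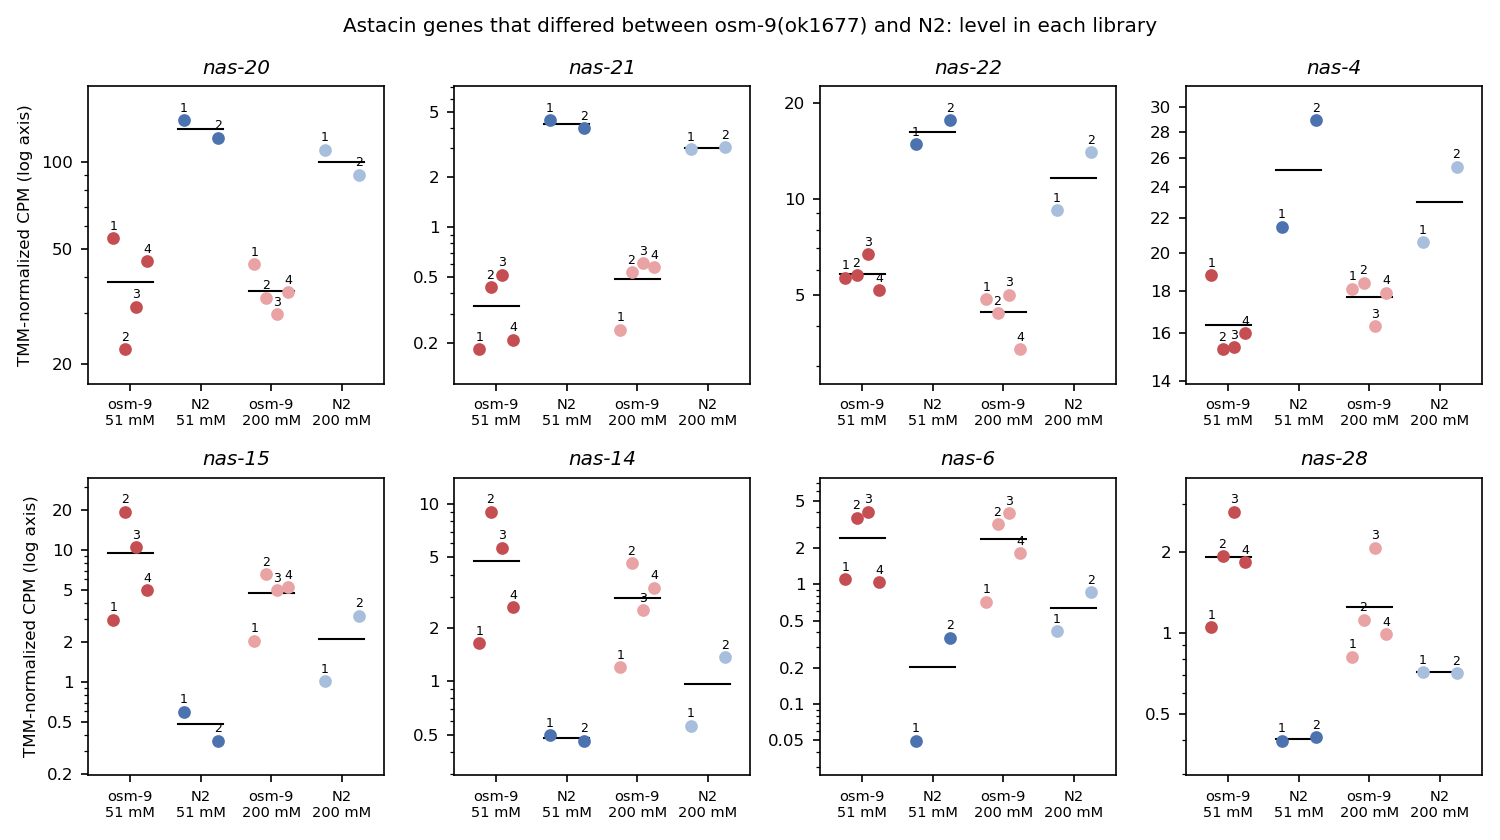
Level of the 8 called astacin genes in each library, in TMM-normalized CPM on a log axis that differs between panels. Points are libraries with their replicate number and lines are group means. *nas-20*, *nas-21*, *nas-22* and *nas-4* lie lower in all *osm-9(ok1677)* libraries than in N2 at both concentrations, and *nas-15*, *nas-14* and *nas-6* are separate from N2 at 51 mM and overlap with it at 200 mM.

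*nas-36*, *nas-37* and *nas-38*, members with a known role in molting, did not pass the test in either strain comparison when all 12 libraries were fitted without a block. *nas-37* had 58.9, 48.9, 43.8 and 53.9 CPM in *osm-9(ok1677)*, against 46.4 and 41.5 CPM in N2 at 51 mM NaCl. Its groups overlapped, with a log2 fold change of 0.23 (SE 0.17, edgeR adjusted p = 0.421). At 200 mM it had 50.5, 44.7, 37.8 and 44 CPM in *osm-9(ok1677)*, against 54 and 38.2 CPM in N2, and a log2 fold change of −0.06 (SE 0.17, edgeR adjusted p = 0.885).

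*nas-36*, which acts in molting, had 6.48, 19.3, 29 and 5.81 CPM in *osm-9(ok1677)*, against 5.23 and 7.96 CPM in N2 at 51 mM NaCl. At 200 mM it had 4.13, 13.1, 21.7 and 8.99 CPM in *osm-9(ok1677)*, against 4.24 and 9.99 CPM in N2. Replicates 2 and 3 of the mutant were above N2, whereas replicates 1 and 4 were within or just outside its range. The log2 fold change was 1.2 (SE 0.75, edgeR adjusted p = 0.317) at 51 mM and 0.75 (SE 0.74, edgeR adjusted p = 0.602) at 200 mM. Without mutant replicates 2 and 3 these values became −0.19 and −0.17. Without mutant replicates 1 and 4 the value at 51 mM was 1.86 (edgeR adjusted p = 0.0309).

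*nas-38*, known for its part in the quiescence of worms at the molt, had 9.82, 25.5, 32.3 and 8.22 CPM in *osm-9(ok1677)*, against 7.82 and 10.8 CPM in N2 at 51 mM NaCl. The values at 200 mM were 10.7, 16.3, 24.2 and 11.3 CPM in *osm-9(ok1677)*, against 10.6 and 19.4 CPM in N2. The pattern among the mutant libraries was that of *nas-36*, and the groups overlapped. It differed by a log2 fold change of 1.02 (SE 0.56, edgeR adjusted p = 0.254) at 51 mM and 0.05 (SE 0.54, edgeR adjusted p = 0.968) at 200 mM, and without mutant replicates 2 and 3 it was −0.13 and −0.5. At 51 mM it was 1.62 (edgeR adjusted p = 0.0191) without mutant replicates 1 and 4, and 0.74 (edgeR adjusted p = 0.0352) with the replicate block.

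*toh-1* is in the study's own list of genes that differed between these samples, so its direction is not independent evidence. Genes of the study's lists passed an edgeR P of at most 0.05, with no adjustment named, whereas calls here use an adjusted p. Its levels at 51 mM NaCl were 40.4, 69.9, 82.3 and 49.2 CPM in *osm-9(ok1677)*, against 29.7 and 38.5 CPM in N2. At 200 mM they were 54.2, 66.6, 72.7 and 56.7 CPM in *osm-9(ok1677)*, against 37 and 60.8 CPM in N2. The groups were separate at 51 mM and overlapped at 200 mM. The edgeR fit gave a log2 fold change of 0.82 (SE 0.29, edgeR unadjusted p = 0.016, edgeR adjusted p = 0.0877) at 51 mM and 0.36 (SE 0.29, edgeR adjusted p = 0.503) at 200 mM. At 51 mM it was 0.98 without mutant replicate 1 (edgeR adjusted p = 0.0391), the only single library whose removal brought it past the threshold, and 0.64 (edgeR adjusted p = 0.163) without replicate 3. Without replicates 2 and 3 together it was 0.31 (edgeR adjusted p = 0.455), and without replicates 1 and 4 together 1.15 (edgeR adjusted p = 0.0223). With the replicate block it was 0.7 (edgeR adjusted p = 0.00481).

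*nas-7*, like *nas-6* a protease of the pharynx, had 10, 31.2, 38.6 and 8.69 CPM in *osm-9(ok1677)*, against 10.4 and 19.3 CPM in N2 at 51 mM NaCl, and 9.17, 17, 26.3 and 11.6 CPM in *osm-9(ok1677)*, against 10.8 and 23.5 CPM in N2 at 200 mM. The mutant libraries lay both above and below N2. Its log2 fold change was 0.58 (SE 0.64, edgeR adjusted p = 0.594) at 51 mM and −0.1 (SE 0.62, edgeR adjusted p = 0.948) at 200 mM. At 51 mM it became −0.75 without mutant replicates 2 and 3, and 1.23 (edgeR adjusted p = 0.0912) without replicates 1 and 4.

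*nas-39*, the worm member closest to the BMP-1 and tolloid proteases, had 42.4, 32.2, 39 and 40.5 CPM in *osm-9(ok1677)*, against 31.1 and 35.3 CPM in N2 at 51 mM NaCl, and 43.8, 37.1, 46.3 and 44.7 CPM in *osm-9(ok1677)*, against 34.3 and 39.7 CPM in N2 at 200 mM. The groups overlapped at both concentrations. The log2 fold changes of 0.21 (SE 0.15, edgeR adjusted p = 0.358) at 51 mM and 0.22 (SE 0.15, edgeR adjusted p = 0.411) at 200 mM were small, and the locus is joined with *F38E9.1*. *nas-9* had a log2 fold change of 0.43 (SE 0.25, edgeR adjusted p = 0.272) at 51 mM and 0.2 (SE 0.24, edgeR adjusted p = 0.688) at 200 mM.

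*nas-11*, the member with the highest level in the mutant, had 135, 88.3, 97.7 and 135 CPM in *osm-9(ok1677)*, against 68.9 and 84.5 CPM in N2 at 51 mM NaCl, and 137, 99.6, 89.4 and 126 CPM in *osm-9(ok1677)*, against 77.1 and 75 CPM in N2 at 200 mM. All mutant libraries were above both N2 libraries at each concentration. Its log2 fold change between the strains was 0.57 (SE 0.22) at both, with an edgeR adjusted p of 0.107 at 51 mM and of 0.137 at 200 mM, so it did not pass the threshold. Of its exon length, 9.2% is shared with the metal transporter gene *smf-2*. A missed threshold does not show that these members were the same in both strains.

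The remaining members differed in level and in spread. *nas-30*, at 18.6 ± 12.3 CPM in *osm-9(ok1677)* (SD, n = 4) and 7.88 ± 1.5 CPM in N2 (SD, n = 2) at 51 mM NaCl, varied widely among the mutant libraries, whereas *nas-31*, at 4.56 ± 0.217 CPM in *osm-9(ok1677)* and 3.32 ± 0.395 CPM in N2, did not. *nas-23* had the largest value at 51 mM NaCl among those not called, 2.45 (SE 0.94, edgeR adjusted p = 0.11), with 2.42, 13, 18.8 and 3.72 CPM in *osm-9(ok1677)* and 1.15 and 2.31 CPM in N2. *nas-10* had the largest at 200 mM, 2.98 (SE 0.99, edgeR adjusted p = 0.0954), with 18, 10, 16 and 7 counts in *osm-9(ok1677)* and 0 and 3 counts in N2. In *osm-9(ok1677)* both genes were spread over a wide range, and the N2 value of *nas-10* is at the limit of 3 counts, which stood for between 0.137 and 0.186 CPM.

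Many members shared the same order of libraries within a strain. In *osm-9(ok1677)* at 51 mM NaCl, replicates 2 and 3 were both above replicates 1 and 4 for 19 of 32 members (59.4%), beside 30.3% of all loci. At 200 mM this was so for 13 members (40.6%), beside 24.9% of all loci. The same 13 members had this order at both concentrations (beside 18.9% of all loci): *nas-1*, *nas-6*, *nas-7*, *nas-8*, *nas-12*, *nas-23*, *nas-27*, *nas-28*, *nas-29*, *nas-30*, *nas-36*, *nas-38* and *toh-1*. The opposite order held at both concentrations for 4 members (12.5%, beside 17.7% of all loci), *nas-11*, *nas-20*, *nas-25* and *nas-31*. In N2, replicate 2 was above replicate 1 at both concentrations for 22 members (68.8%, beside 38.7% of all loci). These shares describe the libraries, and members that share an order are not independent of each other.

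**Figure D5:**
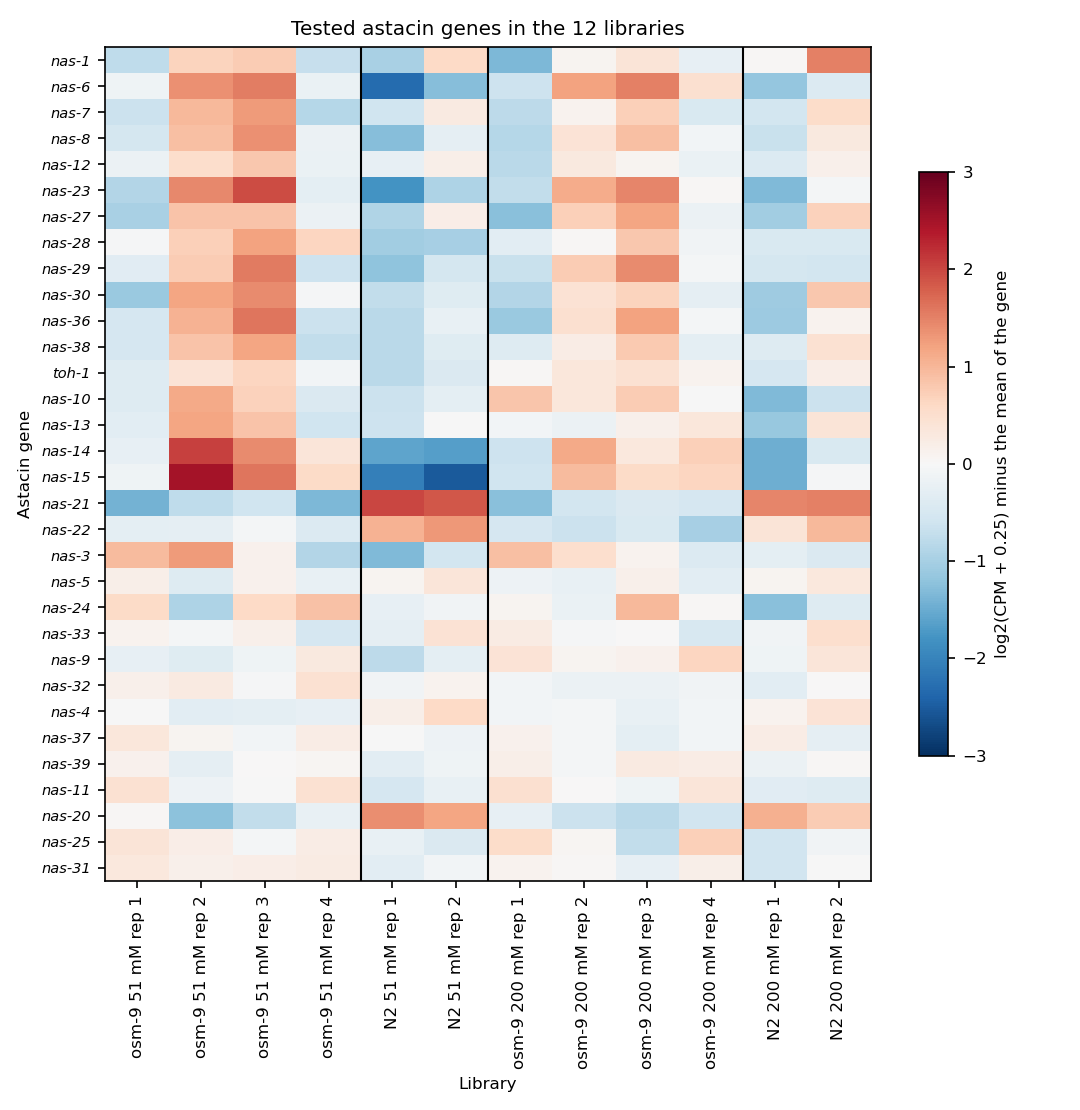
Level of the 32 tested astacin genes in the 12 libraries, as log2(CPM + 0.25) minus the mean of the gene over the libraries, with red above and blue below the mean and lines between groups. Genes are sorted by the order of the *osm-9(ok1677)* replicates: in the upper 13 rows replicates 2 and 3 are above replicates 1 and 4 at both concentrations, and *nas-20*, *nas-21* and *nas-22* are highest in the N2 libraries.

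Genes of molting and the cuticle were taken from a list of 22, which includes the astacin *dpy-31*, and 21 of them were found and tested. At 51 mM NaCl edgeR called 9 higher in *osm-9(ok1677)* and 0 lower, 42.9% beside 12.3% of all loci, with a median log2 fold change of 1.85. Without adjustment 15 had a p of at most 0.05, all upward, and DESeq2 called 12 higher and 0 lower. The 9 were the transcription factor genes *nhr-25* (1.85, SE 0.48) and *grh-1* (1.34, SE 0.3), the cuticle and apical matrix genes *noah-1* (2.44, SE 0.42), *noah-2* (2.6, SE 0.4) and *fbn-1* (2.15, SE 0.31), the molting genes *mlt-9* (2.73, SE 0.76) and *mlt-11* (2.81, SE 0.63), the hedgehog-related *qua-1* (2.49, SE 0.71) and the proprotein convertase *bli-4* (0.33, SE 0.09). At 200 mM 2 were higher, *noah-2* (1.4, SE 0.37) and *fbn-1* (1.24, SE 0.29), 9.52% beside 6.43% of all loci, and the median was 0.67. DESeq2 called 2 higher and 1 lower at 200 mM. *nhr-23* of this list lay below 0, at −0.08 (SE 0.12, edgeR adjusted p = 0.72) at 51 mM and −0.37 (SE 0.12, edgeR adjusted p = 0.098) at 200 mM. The count called by edgeR at 51 mM dropped to 2 without N2 replicate 1, to 1 without N2 replicate 2 and to 5 without mutant replicate 2 or 3. Without mutant replicates 2 and 3 together it was 8, with a median of 0.87, and with the replicate block it was 14. At 200 mM 0 were called without N2 replicate 1, without N2 replicate 2 or without mutant replicate 3. *lin-42*, *fbn-1*, *mlt-8*, *noah-2* and *suro-1* of this list are in the study's own tables from these samples and are not independent evidence. *dpy-31*, the astacin that cleaves the cuticle collagen SQT-3, had a log2 fold change of 0.34 (SE 0.15, edgeR adjusted p = 0.158) at 51 mM.

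Summed over the 21 molting genes, the level at 51 mM NaCl was 1390, 2390, 2670 and 1440 CPM in *osm-9(ok1677)*, against 889 and 930 CPM in N2. At 200 mM it was 1140, 1600, 2260 and 1350 CPM in *osm-9(ok1677)*, against 975 and 1320 CPM in N2. Replicates 2 and 3 of the mutant were the highest at both concentrations.

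The 5 adult stage genes (*col-19*, *col-7*, *vit-2*, *vit-5* and *vit-6*, the last 3 for yolk proteins) showed the opposite order. Their sum was 26200, 14300, 9940 and 31600 CPM in *osm-9(ok1677)* and 41100 and 38400 CPM in N2 at 51 mM NaCl, with 1 of the 5 (*col-7*) called lower and 0 higher by edgeR. At 200 mM it was 32800, 14000, 8520 and 28400 CPM in *osm-9(ok1677)* and 38400 and 36900 CPM in N2. There too 1 of the 5 was called lower, *col-7* at −1.35 (SE 0.32, edgeR adjusted p = 0.032), and 0 higher. Of the 5 pharyngeal muscle genes, 0 were called at either concentration by edgeR, also without adjustment, and their sum lay between 325 and 587 CPM in *osm-9(ok1677)* and between 253 and 291 CPM in N2 at 51 mM. In the other marker lists at 51 mM, 1 of 4 epidermis genes (*dpy-7*) was higher and 1 of 4 sperm genes (*spe-11*) was lower, and none of the 5 intestine, 4 body wall muscle, 4 neuron and 5 germline genes was called by edgeR, with 1 body wall muscle and 1 neuron gene higher without adjustment. The part of developmental stage and of cell composition in the astacin differences was not tested. In RNA of whole worms, fewer cells of a type and less RNA per cell cannot be told apart.

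The second question was whether 6 h at 200 mM NaCl changed astacin levels. In *osm-9(ok1677)* 0 of 32 members were called between 200 and 51 mM NaCl by edgeR, beside 0.351% of all loci, and 0 had an unadjusted p of at most 0.05, beside 5.57% of all loci. In N2 edgeR called 0, beside 0.195% of all loci, and 2 had an unadjusted p of at most 0.05 (*nas-9* and *nas-15*), beside 4.96% of all loci. DESeq2 and edgeR's exact test also called 0 in each strain. The median log2 fold change of the members was −0.22 in *osm-9(ok1677)* and 0.17 in N2, beside −0.01 and 0.02 over all loci.

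*nas-9* had the smallest p of the members for NaCl in each strain. It had 41.2, 32.6, 33.7 and 48.6 CPM at 200 mM and 25.8, 24.1, 28 and 38 CPM at 51 mM in *osm-9(ok1677)*, and 28 and 40 CPM at 200 mM and 17.9 and 25.2 CPM at 51 mM in N2. In each strain every replicate was higher at 200 mM than its own number at 51 mM. The log2 fold change was 0.43 (SE 0.2, edgeR adjusted p = 0.904) in *osm-9(ok1677)* and 0.66 (SE 0.28, edgeR adjusted p = 0.913) in N2. *nas-22* was lower at 200 mM than at 51 mM in every replicate of both strains by the values above, with a log2 fold change of −0.4 (SE 0.19, edgeR adjusted p = 0.931) in *osm-9(ok1677)* and −0.48 (SE 0.26, edgeR adjusted p = 1) in N2. The share of all loci that kept the same direction in every same-numbered pair, as *nas-9* and *nas-22* did, was not counted. The labels also do not tie a number to a culture. *nas-20* and *nas-21* were not called for NaCl in either strain.

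A test of whether the strains differed in their response to NaCl called 0 members with edgeR, where 0.00649% of all loci were called, and 0 with DESeq2. Without adjustment 1 member had a p of at most 0.05 (beside 1.8% of all loci), *nas-15*, with a difference of −3.13 (SE 1.12, edgeR adjusted p = 1). *nas-15* levels were 2.12 higher on the log2 scale at 200 than at 51 mM in N2 and had a log2 fold change of −1.01 in *osm-9(ok1677)*, neither of which passed the adjusted threshold. So *nas-6*, *nas-14*, *nas-15* and *nas-28*, which differed between the strains at 51 mM and did not pass at 200 mM, were not shown to differ in their response to NaCl.

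The other 7 members had too few counts to be tested. *hch-1*, the hatching enzyme, had 4 counts in all, each in *osm-9(ok1677)* replicate 4 at 51 mM NaCl. *nas-16*, *nas-18*, *nas-40*, *nas-19* and *nas-17* had 2, 2, 16, 24 and 48 counts over the 12 libraries. *nas-17* and *nas-19* lie with *nas-16* and *nas-18* in a cluster of subgroup III genes on the same chromosome as *nas-20*, *nas-21* and *nas-22*. *nas-2* had 0 counts in every library, which allows up to 3 counts, or 0.186 CPM, in the shallowest library. The annotation has 2 genes of that name on chromosome V, so its reads may have been split or left out.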

How the data were processed

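The authors sequenced paired mRNA libraries of 12 samples, aligned the reads with TopHat 1.4.1, mapped them to Ensembl genes with Cufflinks 2.0.1 (versions per the submitters' processing notes; the study itself used edgeR 3.2.4) and deposited raw read counts per locus, without normalization. A locus can join several genes, as it does for 3 members, and 12 members share exon bases with another coding gene. The use of strand in counting is not given in the sources used here, so overlapping genes cannot be told apart. Groups and replicate numbers came from the sample labels, and all 12 columns were used. Total counts ranged from 15949889 to 21418277. Because reads without molecular identifiers are not independent molecules, limits from counts cover counting error only.

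Counts were fitted over all loci with edgeR 4.0.16 in R 4.3.3 (quasi-likelihood, 1 mean for each of 4 groups, TMM factors, filterByExpr with a minimum count of 10 and total of 15), which kept 15403 loci. Tests were two-sided, with Benjamini-Hochberg adjustment over these loci and a threshold of 0.05. The standard error is the log2 fold change divided by the square root of F. DESeq2 1.42.0, edgeR's exact test, other filters and factors, the groups compared alone, a replicate block and fits without single libraries were the alternatives. CPM used the TMM factors. Exon lengths and positions came from the Ensembl annotation of WBcel235; the position of *nas-40* came from a RefSeq gene table, and it has no exon length here. Subgroups follow the numbering of the family as known from the literature.

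The labels number the replicates of each group. After group means were removed, same-numbered samples correlated across loci in 14 pairs with r between 0.08 and 0.81, over 0.1 in 13 of them, and the 4 pairs of *osm-9(ok1677)* at 200 and 51 mM NaCl between 0.52 and 0.81. The pairs of N2 at 200 and 51 mM must share the same r, as each group holds 2 libraries. Samples of different numbers were not compared in this way. No 2 libraries of the same group agreed within sampling noise. The methods give independent experiments for each condition; the labels do not tie a number to a culture, and p-values measure the spread between these samples.

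Full values are given for each called member and for *nas-36*, *nas-37*, *nas-38*, *toh-1*, *nas-6*, *nas-7*, *nas-9* and *nas-39*, whose roles are known; *nas-11*, *nas-10* and *nas-23* were added after their values were seen. The members, lists and rules were chosen with earlier results of these data known. No sequences are shown, as none was given with the annotation.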

Additional observations from a re-analysis of the deposited data

How the results depend on the processing

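With 8 members called at 51 mM NaCl, the count was 8 with RLE factors or no filter, 9 with DESeq2, 7 with the exact test, 3 with at least 10 counts in every sample (20 members tested), 4 with only the 2 groups fitted, 15 with the replicate block (11 higher and 4 lower) and between 3 and 9 when single libraries were left out. Without mutant replicates 1 and 4 it was 14 and without replicates 2 and 3 it was 6, both chosen after seeing the data. At 200 mM, 3 members were called, 10 with the replicate block (6 higher and 4 lower) and between 2 and 3 without single libraries. The replicate block takes the strain difference from replicates 1 and 2, and its cause of more calls was not tested. Same-numbered libraries of the strains correlated with r of 0.39 and 0.37 at 51 mM and of 0.47 and 0.19 at 200 mM, from 2 pairs each, and the labels do not tie the numbers to a shared culture. The block called 0 members for NaCl, and the NaCl comparisons and the difference between strains gave 0 under every alternative run.

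Direction changed only for members that were not called. Without mutant replicates 2 and 3, *nas-36* was at −0.19 and −0.17, *nas-38* at −0.13 and −0.5 (51 and 200 mM) and *nas-7* at −0.75 (51 mM). At 200 mM, without replicates 1 and 4, *nas-7* was at 0.34 and *nas-9* at −0.03, *nas-37* was at 0.04 with the block, and *nas-38* was at −0.01 with no filter and −0.05 with the block. Without single libraries the values at 200 mM ranged between −0.35 and 0.21 for *nas-37*, −0.32 and 0.49 for *nas-38*, −0.55 and 0.51 for *nas-7* and −0.04 and 0.42 for *nas-9*, and for *nas-32* in N2 (200 against 51 mM) between −0.36 and 0.02. By CPM without length scaling, *nas-20* had rank 5 in the mutant, *nas-37* rank 3 in both strains and *toh-1* rank 4 in N2. Depth limits *nas-6*, *nas-10*, *nas-21* and the untested members, which rest on few counts. It also limits the N2 side of the other members called higher at 51 mM. There N2 replicates 1 and 2 had 8 and 8 counts of *nas-28*, 10 and 9 of *nas-14* and 12 and 7 of *nas-15*. With at least 10 counts required in every sample, the members called higher were not tested.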
